A study of Cucumis sativus with 6 samples.

Results

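Genes depleted in fruit phloem are genes of young cucumber whose expression score was at least 2-fold lower in the phloem of the fruit than in that of both the pedicle and the stalk, while pedicle and stalk were alike. They numbered 173 of the 15720 genes in the authors' table. Phloem was taken from fruit, pedicle and stalk of cucumber (Cucumis sativus) inbred line 9930, 3 days post anthesis (after flower opening), with 2 libraries for each organ and 6 in all. Cells were cut by laser microdissection from 10 µm sections of fixed, paraplast-embedded tissue, and their RNA was amplified before Illumina libraries were made from poly(A) RNA. A cylinder of 3 mm is recorded for every library. All plants were of 1 inbred line, with no treatment or mutation, and fruits were harvested together with their pedicles. The labels do not say how the stalk was delimited or how many plants went into a library, so the spread between the 2 libraries of an organ may be partly technical.

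Phloem is the living tissue that moves sugars, amino acids, proteins and RNAs from leaves to growing organs. Its conducting cells, the sieve elements, lose their nuclei when they mature and are kept alive by the companion cells beside them. In cucumber the main transport sugars include raffinose and stachyose along with sucrose, and sugars reach the fruit through the phloem of the pedicle and leave the phloem within the fruit. In bulk samples such as these, fewer cells of a type and less RNA per cell cannot be told apart. The deposited table gives locus identifiers only and does not pair them with gene names or products. None of them (0 matched) occurs in the RefSeq table of 23999 cucumber genes used for names, so no function is given to any gene here and no list of phloem or other cell type markers could be applied. The labelled tissue was therefore not checked against its markers, and the part of other cell types in the values below was not tested.

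Members were chosen on the same scores that are described below, so their low values in fruit are a description, and no test of them is used as evidence. The score, TPTM, is a whole number given by the authors, which the labels do not define. It is read here as a value per 10000000 because each library sums to nearly that total. No correction for gene length is recorded, so scores are compared between libraries, and an order of genes by score is not an order by number of transcripts. An organ's value was the mean of its 2 libraries plus 5. A member had a fruit value at least 2-fold below those of pedicle and stalk, pedicle and stalk values within 2-fold of each other, both fruit libraries below all 4 others, and pedicle and stalk means of at least 100 TPTM each. Of the 15720 genes, 8120 reached 100 TPTM in both pedicle and stalk, and in 7044 of these the 2 organs were within 2-fold. Fruit was at least 2-fold below both in 175 of the 7044, and 2 were left out because a fruit library overlapped the others. The 173 members are 2.46% of the 7044 genes that could have been chosen. All 173 passed the filter of 10 TPTM in at least 2 libraries that kept 15381 genes for the fit across all genes.

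**Figure D1:**
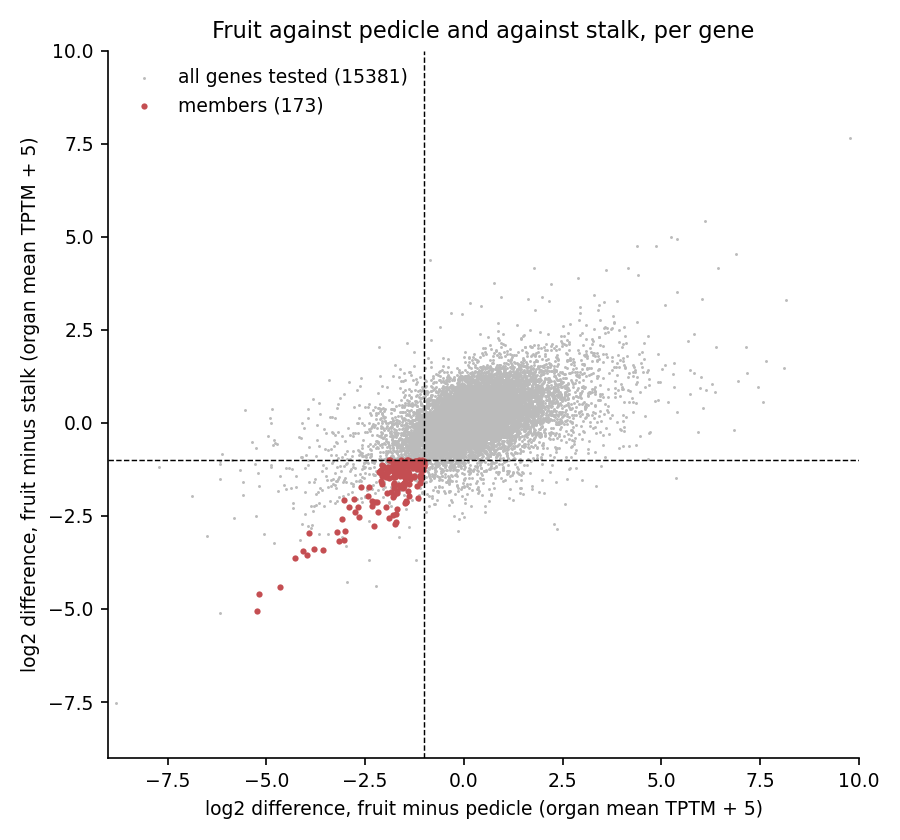
Each point is a gene, placed by its log2 difference of fruit from pedicle (x axis) and of fruit from stalk (y axis), both from organ means plus 5 TPTM; dashed lines mark a 2-fold fall. The 173 members (red) fill the lower left corner, with medians of -1.63 against pedicle and -1.35 against stalk, and other genes there (grey) missed another condition of the rule.

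The members together took a smaller share of the library in fruit than in the other organs. They made up 0.900% and 0.807% of all scores in the fruit libraries, 3.03% and 3.03% in the pedicle libraries and 2.61% and 2.96% in the stalk libraries. The share averaged 0.853% ± 0.066 in fruit, 3.03% ± 0.005 in pedicle and 2.78% ± 0.25 in stalk (SD, n = 2 each), so the mean share in pedicle was 3.55 times and that in stalk 3.26 times the share in fruit. No library of fruit came near those of the other organs, which the rule itself requires gene by gene. The member with the highest score in pedicle and stalk held 9.03% and 11.4% of the members' sum in fruit, 11.8% and 9.65% in pedicle and 15.7% and 20.5% in stalk. Without it the members' share was 0.767% ± 0.074 in fruit, 2.71% ± 0.05 in pedicle and 2.27% ± 0.11 in stalk. The stalk libraries thus lay closer together without this gene, Csa5G114580 (named here after its values were seen), which scored 8121 and 9227 TPTM in fruit, 35849 and 29255 TPTM in pedicle and 40928 and 60663 TPTM in stalk.

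Most members were reduced in fruit and still present. The median member scored 209 and 161 TPTM in fruit, 587 and 637 TPTM in pedicle and 572 and 515 TPTM in stalk. The median over all genes of the table was 143 and 158 TPTM in fruit, 128 and 133 TPTM in pedicle and 140 and 131 TPTM in stalk. The median member was thus above the median gene in every library, by least in fruit, and the rule set a minimum in pedicle and stalk. Among the 7044 genes that could have been chosen, the median organ mean was 402.5 TPTM in fruit, 364.5 TPTM in pedicle and 371 TPTM in stalk. For the members it was 189.5, 573.5 and 571.5 TPTM in the same order. Fruit means ran from 7 to 8674 TPTM. No member (0) was listed at 0 in a fruit library, 4 had a fruit mean under 10 TPTM, 27 under 50 TPTM and 59 under 100 TPTM. Scores of 0 in fruit were rare: 159 and 161 of all 15720 genes had one in the 2 libraries. The lowest fruit mean among the 7044 genes was also 7 TPTM.

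The fall in fruit was moderate for most members and deep for a few. Pedicle exceeded fruit by 3.10-fold in the median member (quartiles 2.60 and 3.92) and stalk exceeded fruit by 2.55-fold (quartiles 2.21 and 3.66), on scores plus 5. The corresponding median log2 differences were -1.63 for fruit minus pedicle and -1.35 for fruit minus stalk, against 0.19 and 0.13 over all 15381 genes tested. At least a 3-fold fall against both organs was seen in 49 members, 4-fold in 26, 5-fold in 16, 8-fold in 10 and 10-fold in 8. Against pedicle alone 94 members fell at least 3-fold, and against stalk alone 63 did. At 4-fold the numbers were 39 against pedicle and 38 against stalk, at 8-fold 15 and 10, and at 10-fold 9 and 8.

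The 8 members at least 10-fold lower in fruit than in both other organs spanned a wide range of scores. Their means ran from 7 to 346 TPTM in fruit (median 51), from 190.5 to 4843.5 TPTM in pedicle (median 904) and from 142.5 to 3644 TPTM in stalk (median 699.5). In 3 of these 8 the fruit mean was under 10 TPTM. The 147 members whose smaller fall was under 4-fold had a median of 204.5 TPTM in fruit, 560 TPTM in pedicle and 556 TPTM in stalk.

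**Figure D2:**
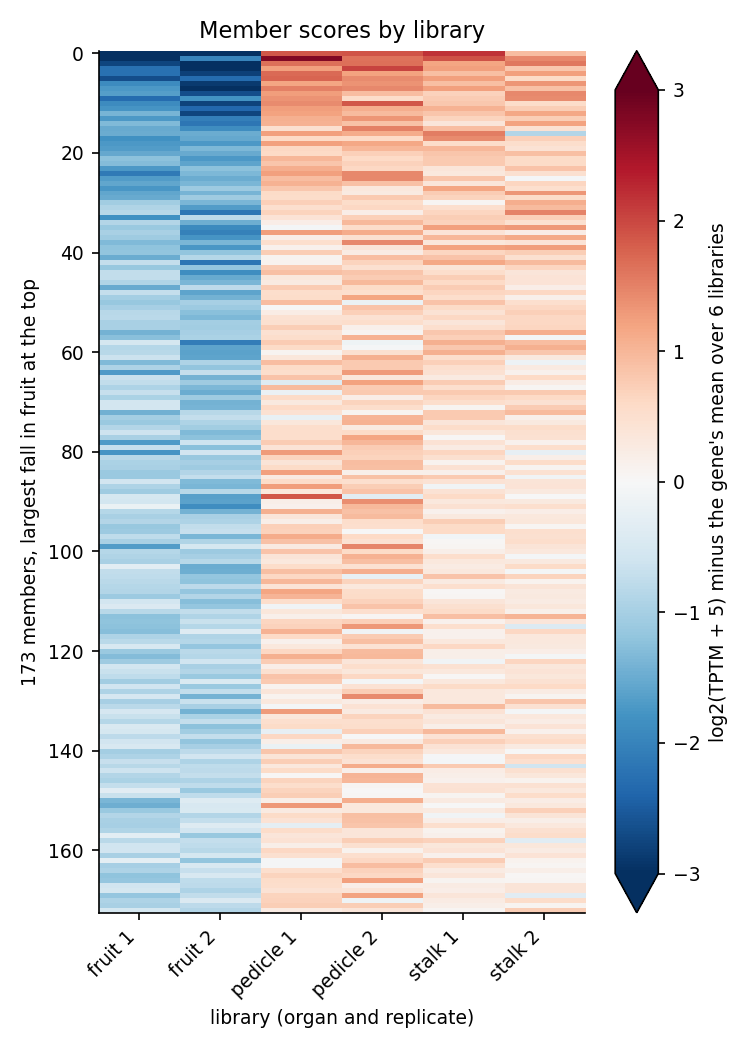
Rows are the 173 members, ordered by the smaller of their falls in fruit with the largest at the top, and columns are the 6 libraries; colour gives log2(TPTM + 5) minus the gene's mean over the libraries. The fruit columns are lower than the other 4 in every row, as the rule requires, and the deepest colours are held by the few members at the top, 8 of which were at least 10-fold lower in fruit.

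Csa2G070310 had the lowest fruit value relative to both other organs. It scored 4 and 10 TPTM in fruit, 447 and 456 TPTM in pedicle and 550 and 232 TPTM in stalk. The pedicle libraries nearly coincided, the stalk libraries lay more than 2-fold apart, and the fruit libraries were far below all of them. Its log2 difference was -5.25 for fruit minus pedicle and -5.04 for fruit minus stalk, which is 38.0-fold and 33.0-fold lower in fruit on scores plus 5. With any 1 library left out, these differences ran from -5.66 to -4.93 and from -5.53 to -4.30. The value of -4.30 was that without stalk replicate 1.

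Csa5G114560 followed in both comparisons, and the size of its fall depended on which fruit library was used. It scored 3 and 104 TPTM in fruit, 2959 and 1326 TPTM in pedicle and 1631 and 1175 TPTM in stalk. Both fruit libraries were below all 4 others, but they differed more from each other than those of any other member. The log2 difference was -5.20 for fruit minus pedicle and -4.59 for fruit minus stalk. It was -4.30 and -3.69 without fruit replicate 1, and -8.07 and -7.46 without fruit replicate 2. Without pedicle replicate 1 the difference from pedicle was -4.51, and without pedicle replicate 2 the gene was no longer a member because pedicle then exceeded stalk by more than 2-fold.

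Within the 2-fold limit that the rule set, members leaned toward pedicle. The median log2 difference of pedicle minus stalk was 0.19 over the members, against -0.04 over all genes tested and -0.01 over the 7044 genes that could have been chosen. The pedicle mean was above the stalk mean in 119 members (68.8%), against 48.9% of the 7044 genes. Both pedicle libraries were above both stalk libraries in 56 members (32.4%), where 25.4% of all genes tested showed this, and both stalk libraries were above both pedicle libraries in 24 members (13.9%), where 31.6% of all genes tested did. Among the 7044 genes these shares were 24.0% and 26.3%. Pedicle and stalk were within 1.2-fold in 79 members and more than 1.5-fold apart in 46. The rule bounds this contrast as well, so these are descriptions with no test.

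Csa4G326550 and Csa2G345960 were the members highest in pedicle relative to stalk. Csa4G326550 scored 17 and 7 TPTM in fruit, 214 and 291 TPTM in pedicle and 139 and 115 TPTM in stalk, with both pedicle libraries above both stalk libraries. Its log2 difference of pedicle minus stalk was 0.96, and its fruit level was -3.92 from pedicle and -2.96 from stalk on the log2 scale. Csa2G345960 scored 1510 and 2050 TPTM in fruit, 7844 and 7288 TPTM in pedicle and 4239 and 3570 TPTM in stalk. The 3 organs did not overlap, and the log2 difference was 0.95 for pedicle minus stalk, -2.08 for fruit minus pedicle and -1.13 for fruit minus stalk. In both genes the order of the organs was fruit, stalk, pedicle from low to high.

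Csa6G182680 and Csa2G196900 were the members highest in stalk relative to pedicle. Csa6G182680 scored 56 and 30 TPTM in fruit, 121 and 189 TPTM in pedicle and 303 and 318 TPTM in stalk. Csa2G196900 scored 305 and 208 TPTM in fruit, 771 and 925 TPTM in pedicle and 1635 and 1689 TPTM in stalk. In both genes the stalk libraries lay close together and above the pedicle libraries, and the log2 difference of pedicle minus stalk was -0.98 in Csa6G182680 and -0.97 in Csa2G196900. The log2 difference of fruit minus pedicle was -1.74 and -1.71 in these genes in the same order, and that of fruit minus stalk was -2.72 and -2.67. These 4 members sit next to the limit of 2-fold between pedicle and stalk, and each ceased to be a member without at least 1 library. Csa4G326550 was lost without pedicle replicate 1 or stalk replicate 1, and Csa6G182680 without pedicle replicate 2 or stalk replicate 1. Csa2G196900 was lost without pedicle replicate 2. Csa2G345960 was lost without fruit replicate 1, pedicle replicate 2 or stalk replicate 1. Without fruit replicate 1, Csa2G345960 missed the 2-fold fall against stalk (log2 difference -0.93), with pedicle and stalk still within their limit. In every other loss listed here, pedicle and stalk were more than 2-fold apart.

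**Figure D3:**
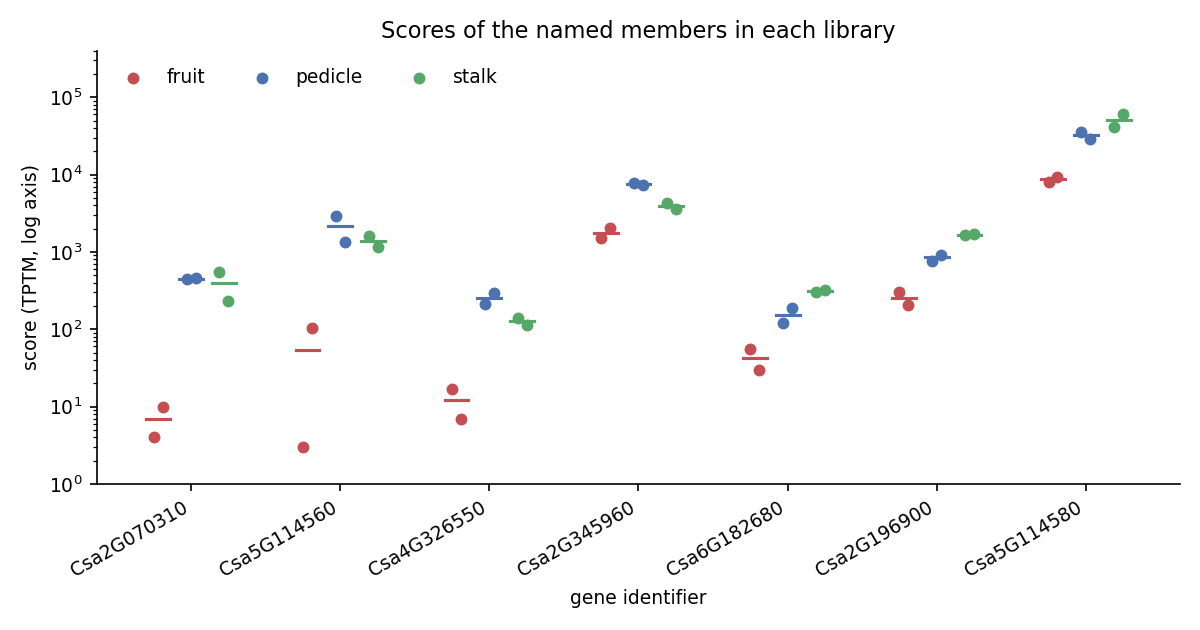
Points are the TPTM scores of single libraries (log axis) for 7 members, with fruit, pedicle and stalk from left to right in each gene and a line at the organ mean of 2 libraries. The fruit points are below all others in every gene shown, and those of Csa5G114560 (3 and 104 TPTM) are the farthest apart.

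In the fit across all genes (limma on log2(TPTM + 5), Benjamini-Hochberg adjusted p under 0.05), 159 of the 173 members were called lower in fruit than in pedicle, where 7.54% of all genes tested were. Against stalk, 100 members were called lower in fruit, where 1.72% of all genes tested were. These contrasts chose the members, so nothing is read from the counts. The count against stalk was 48 when fruit replicate 1 was omitted and 23 when fruit replicate 2 was. It was 11 on omitting stalk replicate 1, 6 on omitting stalk replicate 2, and 31 with no intensity trend in the variance prior. The rule also held pedicle and stalk within 2-fold, which limits how many members can be called between them, so the following counts are descriptions too. Between pedicle and stalk, 2 members were called higher in pedicle, Csa2G345960 and Csa3G020080 (the second named after its values were seen), where 4.24% of all genes tested were. Csa2G196900 was the 1 member called lower in pedicle than in stalk, where 8.88% of all genes tested were. Limma called 0 members between these organs with pedicle replicate 1, stalk replicate 1 or stalk replicate 2 omitted or with no intensity trend (29, 15, 10 and 13 at an unadjusted p under 0.05, against 27 as reported), and 1 member with pedicle replicate 2 omitted. No member (0) was called lower in pedicle than in stalk under median-of-ratios scaling, quantile normalisation or a replicate block (the replicate number added as a term), where 2, 3 and 2 members were called higher in pedicle (27, 32 and 24 in either direction at an unadjusted p under 0.05). Csa3G020080 scored 1933 and 3280 TPTM in fruit, 19759 and 22658 TPTM in pedicle and 10396 and 11634 TPTM in stalk, with no overlap between organs.

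Members were found over a wide range of scores, with means of pedicle and stalk from 100.75 to 41673.75 TPTM, while the 7044 genes that could have been chosen reached 356400.5 TPTM. By the mean score of pedicle and stalk, 30 members lay between 100 and 200 TPTM, 47 between 200 and 500 TPTM, 67 between 500 and 2000 TPTM and 29 above 2000 TPTM. These are 1.78%, 1.78%, 3.29% and 4.22% of the genes in each range that could have been chosen. Over all of those genes, the median log2 difference of fruit minus pedicle was 0.14, 0.14, 0.05 and -0.05 in the 4 ranges. For fruit minus stalk it was 0.17, 0.13, 0.02 and -0.10. The larger shares thus lay where fruit was lower over all such genes, and the part of this shift in them was not tested. Falls of at least 4-fold against both organs occurred in 3, 8, 10 and 5 members of these ranges. The members' median log2 difference of fruit minus stalk was -1.43, -1.32, -1.35 and -1.50 in the 4 ranges. Their median of fruit minus pedicle was -1.67, -1.66, -1.57 and -1.77. The rule requires a fall of at least 2-fold against both organs in every range, which holds these medians near its limit. Nothing is read from their likeness.

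**Figure D4:**
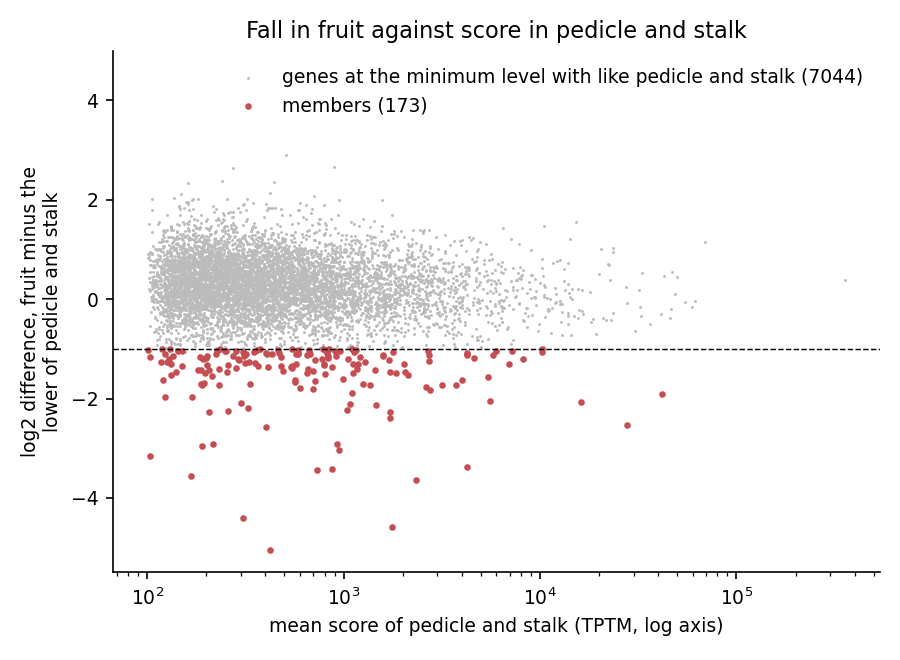
Each point is a gene with at least 100 TPTM in pedicle and in stalk and with those organs within 2-fold (7044 genes); the x axis is the mean score of pedicle and stalk (TPTM, log axis) and the y axis the log2 difference of fruit from the lower of the 2 organs. The 173 members (red) lie below the dashed line of a 2-fold fall at scores from 100.75 to 41673.75 TPTM.

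The median absolute log2 difference between the 2 libraries of an organ was 0.42 in fruit, 0.37 in pedicle and 0.27 in stalk for the members, against 0.38, 0.45 and 0.27 for all genes tested. For the 7044 genes that could have been chosen it was 0.29, 0.35 and 0.23, lower than for the members in each organ. The fruit libraries were more than 2-fold apart (scores plus 5) in 16 members and more than 3-fold apart in 3. The pedicle libraries were more than 2-fold apart in 14 members and the stalk libraries in 5. The matching shares over other genes were not worked out, so nothing is read from these counts. Fruit replicate 1 was above fruit replicate 2 in 98 members (56.6%), below it in 72 and equal in 3. It was above in 40.1% of the 7044 genes that could have been chosen. The median log2 difference of fruit replicate 1 minus replicate 2 was 0.09 for the members and -0.11 for all genes tested. The part of the library itself in this difference was not tested.

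The limits of the rule cut through a continuous range of values. Just inside the 2-fold limit, a member with 61 and 47 TPTM in fruit had 108 and 118 TPTM in pedicle and 94 and 154 TPTM in stalk, a ratio of 0.500 to the lower organ. Just outside it, a gene with 397 and 168 TPTM in fruit had 681 and 455 TPTM in pedicle and 716 and 521 TPTM in stalk, a ratio of 0.502. In all, 829 genes missed only the 2-fold fall in fruit, 53 missed only the likeness of pedicle and stalk, 97 missed only the minimum of 100 TPTM and 2 missed only the separation of the libraries. Of the 53, pedicle was the higher organ in 50 and stalk in 3. The member nearest to the likeness limit was 1.97-fold apart between pedicle and stalk and the nearest gene beyond it 2.01-fold. The lowest member mean in either organ was 100.5 TPTM, and the highest outside was 99.5 TPTM.

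The same rule applied to the other organs gave 658 genes depleted in pedicle relative to fruit and stalk, and 72 depleted in stalk relative to fruit and pedicle. The mirrored rule, with fruit at least 2-fold above both others and a fruit mean of at least 100 TPTM, gave 268 genes. Each version of the rule has its own set of genes that could have been chosen. The sizes of these sets were not worked out, so the counts are not on a like basis with the number of members. Among the 7044 genes that could have been chosen, both fruit libraries were below all 4 others in 1002 (14.2%) and above them in 1433 (20.3%). These counts share libraries and are set side by side without a test. They were not followed over other scalings. As deposited, fruit scores were higher than pedicle and stalk scores in the median gene by 0.19 and 0.13 on the log2 scale. Relative to those medians the median member was at -1.82 against pedicle and -1.48 against stalk.

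The rule did not use where genes lie, and in cucumber identifiers of this form the number after the letters Csa names the chromosome and the remaining digits run along it. The annotation version is not given in the sources used here and no coordinates are used. Chromosome 3 held the most members, 37 (21.4%, with 21.0% of all genes in the table), followed by chromosome 5 with 30 (17.3% against 13.1%), chromosome 2 with 28 (16.2% against 12.5%) and chromosome 6 with 27 (15.6% against 16.7%). Chromosome 1 held 19 (11.0% against 14.3%), chromosome 4 held 18 (10.4% against 12.1%) and chromosome 7 held 14 (8.09% against 9.81%). No member (0) was among the 68 genes with no chromosome number.

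Several members were neighbours in the table, whose rows follow the identifiers. In 5 pairs of members, with 9 members in all, both stood in adjacent rows, and in 9 pairs, with 15 members, at most 1 other gene stood between them. Some such pairs arise in any set of 173 among 15720 rows. Their expected number was not worked out, so no clustering is read from these counts. The 332 genes next to a member that were not members had a median log2 difference of -0.03 for fruit minus pedicle. For fruit minus stalk it was 0.03, where all genes tested had 0.19 and 0.13 in the same order. Leaving members out takes falls in fruit out of this group, so nothing is read from its medians. Neighbouring genes can overlap or be copies of each other, and with no strand setting or coordinates in the sources their reads may not be separable. The genes below were picked after their values were seen.

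The longest run held 5 members in 6 rows on chromosome 2, from Csa2G193340 to Csa2G196900. Csa2G193340 scored 602 and 364 TPTM in fruit, 1628 and 1070 TPTM in pedicle and 1920 and 2294 TPTM in stalk. Csa2G193350 scored 5144 and 4643 TPTM in fruit, 11781 and 8773 TPTM in pedicle and 9282 and 11071 TPTM in stalk, and its log2 differences of -1.07 from pedicle and -1.06 from stalk were the smallest of the run. The gene between these and the next member, with 6067 and 6590 TPTM in fruit, 8318 and 5369 TPTM in pedicle and 3813 and 6245 TPTM in stalk, did not share the fall. Csa2G194880 scored 36 and 11 TPTM in fruit, 243 and 203 TPTM in pedicle and 185 and 233 TPTM in stalk, a log2 difference of -3.00 from pedicle and -2.91 from stalk. Csa2G196890 scored 5875 and 3257 TPTM in fruit, 30194 and 27209 TPTM in pedicle and 18880 and 34188 TPTM in stalk, with log2 differences of -2.65 and -2.54 in the same order. Csa2G196900, described above, stood in the next row. Together the 5 members held 13.3% and 10.5% of the members' sum in fruit, 14.7% and 12.6% in pedicle and 12.2% and 16.8% in stalk. The members of the run differed in the order of pedicle and stalk: Csa2G193340 and Csa2G196900 were higher in stalk, by log2 differences of pedicle minus stalk of -0.64 and -0.97, and in the other 3 these differences lay between 0.01 and 0.11.

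The highest-scoring member, Csa5G114580, stood 2 rows after Csa5G114560 on chromosome 5. The fall of Csa5G114580 in fruit was -1.91 from pedicle and -2.55 from stalk on the log2 scale, and that of Csa5G114560 was deeper. The gene between them scored 211 and 170 TPTM in fruit, 477 and 356 TPTM in pedicle and 129 and 255 TPTM in stalk, so that it was lower in fruit than in pedicle (log2 difference -1.11) and close to stalk (-0.01). Csa5G114580 was higher in stalk than in pedicle and Csa5G114560 higher in pedicle than in stalk, with log2 differences of pedicle minus stalk of -0.64 and 0.61.

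**Figure D5:**
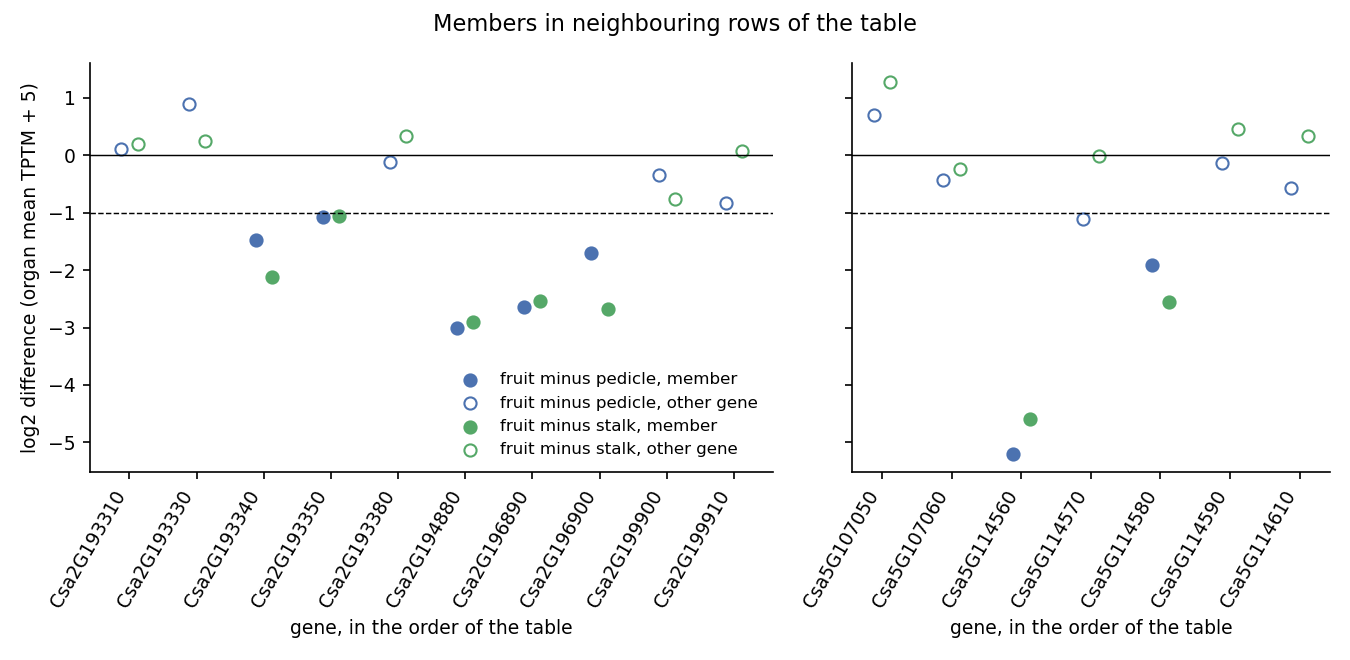
Genes are shown in the order of the table for the run on chromosome 2 (left) and the pair on chromosome 5 (right), with 2 genes on each side; the y axis is the log2 difference of fruit from pedicle (blue) and from stalk (green), filled for members and open for other genes. The 5 and 2 members lie below the dashed line of a 2-fold fall. The genes around and between them lie between -1.11 and 1.28. The gene between the 2 members on chromosome 5 is also below the line against pedicle (-1.11), but not against stalk.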

How the data were processed

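Gene expression was measured by RNA sequencing in 6 laser-dissected phloem libraries, 2 each of fruit, pedicle and stalk, grouped by their labels. For 15720 genes the authors deposited a score per library, TPTM, in whole numbers. The submitters' processing notes list TopHat and HTSeq; no version, genome build, annotation or strand setting is given in the sources used here. The deposited columns sum to 9991842 to 9995581, so they are normalised, rounded values and not counts; reads per library are unknown and no counting interval is given. In every gene the highest organ mean was at least 10 TPTM.

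Members were found by the rule given in the report with Python 3.11.15 and pandas 2.3.3. Log2 differences are between organ means plus 5 TPTM, which understates falls to low scores. Calls come from limma 3.58.1 in R 4.3.3 on log2(TPTM + 5), with 15381 genes at 10 TPTM or more in at least 2 libraries. The fit had a term per organ, all 6 libraries, an intensity trend and Benjamini-Hochberg adjustment over all genes tested. Only the fruit minus pedicle contrast was checked on simulated data. Their spread was shuffled over genes, so that check does not cover the intensity trend. The spread is shared over organs and rests on 2 libraries of each.

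The members, lists and tests were chosen with earlier results of these data known. Genes were named by rule: the 2 members lowest in fruit against pedicle and against stalk, and the 2 highest and 2 lowest in pedicle minus stalk; others are marked where they appear. Word lists of cell type markers and pathways could not be applied, because 0 identifiers matched a named gene, and no sequences are shown. Alternatives covered the pseudocount, filter, scaling, variance prior, libraries fitted, replicate number and limits of the rule.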

Additional observations from a re-analysis of the deposited data

How the results depend on the processing

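The number of members, 173, rose to 466 when fruit had to be only 1.5-fold below both organs and fell to 49 at 3-fold. It stayed between 127 and 228 under the other offsets, minimum levels, likeness limits and scalings. Median-of-ratios factors gave 228 members and quantile normalisation 224, of which 170 and 167 were among the 173; the all-gene median log2 difference was then 0.01 and -0.02 for fruit minus pedicle (0.19 as deposited), and 0.02 and 0.02 for fruit minus stalk (0.13 as deposited). With 1 library left out the rule found 162 to 244 genes, 139 to 149 of them among the 173, and 77 members were found in every such setting and under both scalings.

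Members called lower in fruit than in pedicle numbered 107 to 142 with 1 library left out (159 as reported). Those called lower in fruit than in stalk numbered 6 to 107 (100 as reported), and 31 without the intensity trend. Those called between pedicle and stalk numbered 0 to 4 (3 as reported), and 0 without the trend. Over all genes, leaving out 1 library gave 1768 to 3516 calls between fruit and pedicle (3474 as reported), 15 to 693 between fruit and stalk (453) and 390 to 2381 between pedicle and stalk (2018). Fitting only the organs compared gave 2169 between fruit and pedicle and 702 between fruit and stalk, and dropping the trend gave 133 between fruit and stalk. Fits with 1 library left out have fewer libraries, and their lone library is taken to vary as the rest do; the cause of the other changes was not tested.

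A fit that added a replicate block called 3105, 337 and 1778 genes in the same order of comparisons, and 157, 77 and 2 members, each within 1.5 times the count reported. The deviation of replicate 1 from replicate 2 had a correlation over genes of -0.049 between fruit and pedicle, 0.010 between fruit and stalk and -0.117 between pedicle and stalk, so the numbers were not taken to pair libraries. The depth of the libraries is unknown, so no counting error can be given for the members with fruit scores under 10 TPTM.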
